A study of Mus musculus with 9 samples.

Results

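The glutathione S-transferase genes described here were 10 of the 45513 genes in the count table, matched by Ensembl gene ID to their symbols: the mu class genes Gstm1, Gstm2, Gstm3, Gstm4 and Gstm6, the alpha class genes Gsta2, Gsta3 and Gsta4, the theta class gene Gstt3 and the pi class gene Gstp1. RNA was measured in liver of C57BL/6 mice after 9 weeks in 3 groups of 3 libraries. One group ate a normal diet and received vehicle, the next ate a high fat diet and received vehicle too, and the last ate the high fat diet and received B-LGND2. The series title presents B-LGND2, known here by its code name, as a ligand of estrogen receptor beta. Dose, sex, age, diet composition and the nature of the vehicle were not stated. According to the labels each group had 3 mice, and no batch is named, so p-values reflect only how these samples vary among themselves, which may be technical.

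Glutathione transferases join the tripeptide glutathione to electrophiles such as drug epoxides, quinones and products of lipid peroxidation, which marks the conjugates for export from the cell. The soluble enzymes are dimers, and their classes differ in sequence and in preferred substrate. In liver, several of their genes are known targets of the oxidant-sensing factor NRF2 and of the xenobiotic receptors CAR and PXR.

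The 7 mu class genes of the mouse lie next to each other on chromosome 3 and resemble each other closely. Over the aligned coding sequence, Gstm1 was 89.4% identical to Gstm3 and 85.9% identical to Gstm2, whereas the alpha class genes Gsta3 and Gsta4 were 66.2% identical. The longest run shared without a mismatch by Gstm1 and Gstm3 had 112 bases, coding bases 389 to 500 of Gstm1. Its first 60 bases are shown because a read inside them fits both genes:
Gstm1 and Gstm3, coding bases 389 to 448: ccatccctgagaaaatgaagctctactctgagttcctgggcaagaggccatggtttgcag

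Of all 50-base windows of the representative transcript, 23.1% in Gstm1, 28.8% in Gstm3, 11.8% in Gstm6 and 9.36% in Gstm2 also occurred in a transcript of another gene. The share was 0% in Gstm4, Gsta3 and Gsta4. It was 64.2% in Gsta2, 62.3% in Gstp1 and 26.0% in Gstt3. How the authors' counting treated reads that fit several genes was not stated, so the split of reads among Gstm1, Gstm2, Gstm3 and Gstm6 is uncertain. In Gstt3 the shared windows came from the overlapping gene model Gm20441, which shares 524 exon bases with it.

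**Figure D1:**
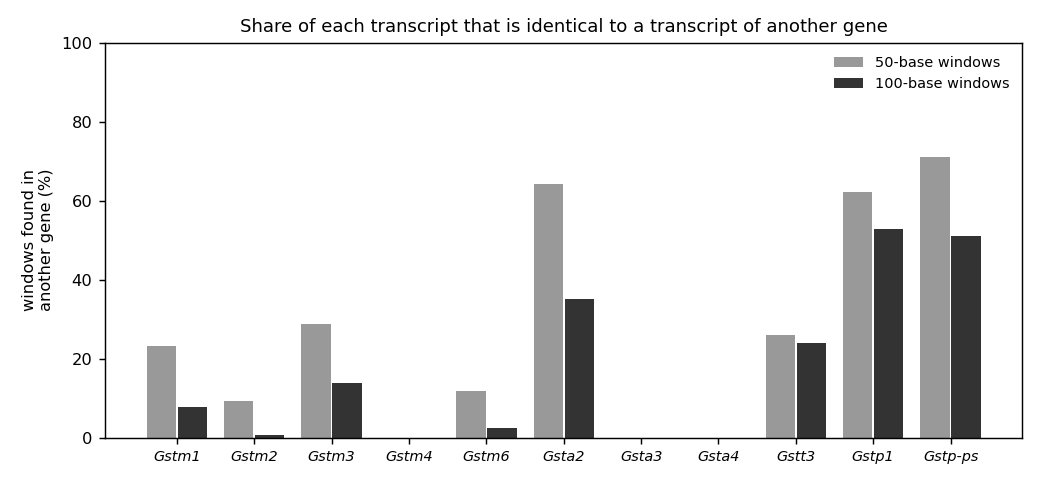
Percentage of 50-base and 100-base windows of each representative transcript that also occur in a transcript of another gene. Gstm4, Gsta3 and Gsta4 sit at 0%, and Gsta2 and Gstp1 stand highest among the 10 genes at 64.2% and 62.3% of the 50-base windows.

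The regions upstream of 4 start sites are shown because these genes differed in their response: Gstm1 and Gstm3 fell with diet and rose with B-LGND2 against vehicle, Gstm6 fell with diet, and Gsta3 passed in neither of these comparisons. Each is the 250 bases before the RefSeq start nearest to the annotated one (RefSeq, GRCm38.p6), on the gene's strand, and capitals mark a match to the core of the antioxidant response element, TGACNNNGC or TGAGNNNGC on either strand. Gstm1 is on the minus strand at chr3:108017974-108018223, Gstm3 on the minus strand at chr3:107969175-107969424, Gstm6 on the minus strand at chr3:107943735-107943984 and Gsta3 on the plus strand at chr1:21240335-21240584:
Gstm1: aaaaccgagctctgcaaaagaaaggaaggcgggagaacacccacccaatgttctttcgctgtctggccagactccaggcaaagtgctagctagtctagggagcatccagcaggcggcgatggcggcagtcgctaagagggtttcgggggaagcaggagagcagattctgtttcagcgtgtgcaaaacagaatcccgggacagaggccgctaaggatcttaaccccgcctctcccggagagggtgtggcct
Gstm3: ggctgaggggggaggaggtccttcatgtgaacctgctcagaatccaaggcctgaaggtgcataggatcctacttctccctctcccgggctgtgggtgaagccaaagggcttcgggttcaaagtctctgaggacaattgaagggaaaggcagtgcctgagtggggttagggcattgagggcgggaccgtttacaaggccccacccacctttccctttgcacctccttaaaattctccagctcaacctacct
Gstm6: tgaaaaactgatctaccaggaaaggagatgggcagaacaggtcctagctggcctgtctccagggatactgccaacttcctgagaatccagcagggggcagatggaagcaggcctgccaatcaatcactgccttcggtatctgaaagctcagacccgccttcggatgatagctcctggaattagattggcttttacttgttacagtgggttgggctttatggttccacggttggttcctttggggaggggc
Gsta3: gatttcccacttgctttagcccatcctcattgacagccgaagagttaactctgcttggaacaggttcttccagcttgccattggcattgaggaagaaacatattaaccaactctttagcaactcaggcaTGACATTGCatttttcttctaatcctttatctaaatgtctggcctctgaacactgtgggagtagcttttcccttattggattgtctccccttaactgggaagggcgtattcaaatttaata

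Windows were found for 9 of the 10 genes. Counting 250 bases before and 50 after the start, Gsta3 and Gstp1 held a match and the other 7 genes held none. The match in Gsta3, TGACATTGC, began 121 bases upstream of the start, and Gstp1 held TGAGTCAGC 74 bases upstream and a further match on the opposite strand. Of 32851 windows of the same length over all genes, 27.8% held either motif, 12.4% TGACNNNGC and 17.6% TGAGNNNGC. A match describes letters and is not a shown binding site, and no match says only that these letters are missing from that window.

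Library totals ran from 5778978 to 10322972 counts. The libraries differed in composition by group: ribosomal RNA genes took 3.16% to 3.74% of counts on normal diet, 0.901% to 1.44% in high fat vehicle livers and 4.31% to 6.19% with B-LGND2. Deviations from the mean expression rose with transcript length in the 3 high fat vehicle libraries (Spearman correlation across genes 0.311 to 0.371). Normal diet replicate 1 had 12.7% mitochondrially encoded counts, and the GC correlation of B-LGND2 replicate 1 was 0.507, in both cases the highest of the 9 libraries. All 8 hepatocyte markers were detected, with a summed level of 83124 to 94442 counts per 1e6 counts (CPM) on normal diet, 80370 to 90349 in high fat vehicle livers and 83301 to 117021 with B-LGND2. The 14 macrophage markers summed to 407 to 657, 401 to 517 and 1273 to 1607 CPM in the same order. In the edgeR comparisons below, 1 of the 8 hepatocyte markers was called higher with diet and 1 with B-LGND2 against vehicle. The shares of all tested genes called higher were 1.5% and 3.07%. With 1 library left out each of these marker numbers was 0 to 1. In bulk liver RNA, fewer cells of a type and less RNA per cell cannot be told apart.

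CPM are taken on library sizes scaled by the trimmed mean of M-values. Per kilobase of exon on normal diet, Gstm1 stood highest at 1070 ± 181 CPM (mean ± SD, n = 3 here and below), and Gsta3 came next at 145 ± 31.5. Gstm3 at 74.3 ± 4.95, Gstm6 at 57.9 ± 11.5 and Gstm4 at 50.3 ± 9.62 CPM per kilobase followed, and neighbours in this order overlapped. So did neighbours among Gsta4 at 31.1 ± 8.29, Gstt3 at 26.1 ± 5.66 and Gstm2 at 20.9 ± 6.38. Gsta2 stood at 3.29 ± 2.09, and Gstp1 was listed at 0. In high fat vehicle livers Gstm3, at 16.4 ± 1.50 CPM per kilobase, stood below Gstm6 at 24.2 ± 3.64 and Gstt3 at 23.0 ± 4.51, which it had exceeded on normal diet. With B-LGND2 it stood at 39.4 ± 10.9, above Gstm6 at 28.4 ± 3.07 and Gstt3 at 14.8 ± 5.01 CPM per kilobase. These orders rest on the length of all annotated exons, 1311 bases in Gstm3, 1989 in Gstm6, 3842 in Gstt3 and 4344 in Gsta3. The representative transcripts had 1311, 1153, 1880 and 1457 bases. In CPM without length, the mean of Gstm3 was below those of Gstm6 and Gstt3 in all 3 groups. Gstm3 and Gstm6 stood at 97.4 and 115, 21.5 and 48.2, and 51.6 and 56.5 CPM in the order of groups.

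**Figure D2:**
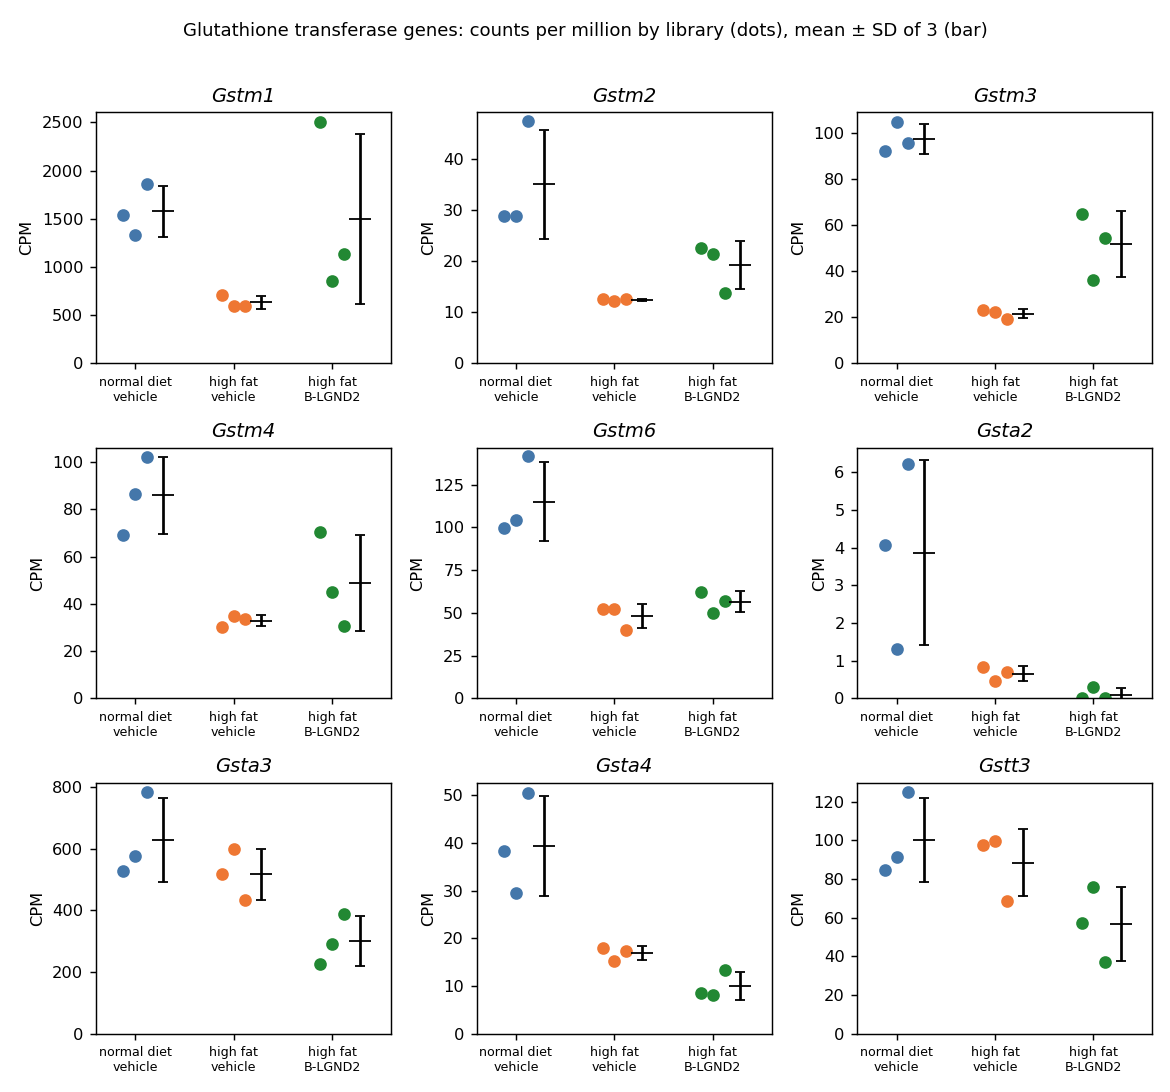
CPM of each glutathione transferase gene by group, with 1 dot per library and bars for the mean ± SD of 3 libraries; each panel has its own linear axis from 0. All 3 high fat vehicle libraries lie below all normal diet libraries in the 5 mu class genes and in Gsta4, and the Gstm1 value of B-LGND2 replicate 1, at 2506 CPM, stands apart from the other libraries of its group.

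High fat against normal diet, both with vehicle, asks what the diet did to these transcripts. All 5 mu class genes and Gsta4 fell, by 2.33-fold to 4.53-fold, while Gsta3 and Gstt3 did not pass the test. Of the 8 genes that passed the low-count filter, 6 were called lower and none higher (quasi-likelihood test of edgeR, Benjamini-Hochberg adjusted over 12102 genes, threshold 0.05), against 1.49% of all tested genes called lower and 1.5% called higher. In these 6, every high fat library lay below every normal diet library, which held for 14.8% of all tested genes. The median log2 fold change of the 8 genes was -1.29, beside 0.01 over all genes tested.

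Gstm3, a mu class subunit gene often used as an NRF2 target (chr3:107963696-107969283, minus strand), changed most among the 8 tested genes. It stood at 91.9, 104.5 and 95.7 CPM in normal diet replicates 1 to 3 and at 22.9, 22.3 and 19.2 CPM in high fat vehicle replicates 1 to 3. The high fat values lie far below every normal diet value and close together. The fall was 4.53-fold, with a log2 fold change of -2.18 (SE 0.24, edgeR adjusted p = 1.93e-04), and it was called in all 22 alternative analyses, in which the log2 fold change ran from -2.24 to -1.96.

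Gstm1 encodes the most abundant mu class subunit of mouse liver (chr3:108012255-108017973, minus strand). It stood at 1540, 1329 and 1859 CPM on normal diet and at 709, 593 and 588 CPM in high fat vehicle livers. The groups were well separated, with normal diet replicate 3 the highest. The fall was 2.50-fold (log2 fold change -1.32, SE 0.32, edgeR adjusted p = 0.0366). It was called in 4 of the 9 fits that left out 1 library: the call was lost without normal diet replicate 2 or 3 or without any 1 of the high fat vehicle libraries, with a log2 fold change of -1.43 to -1.19 and an adjusted p of up to 0.144.

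The other mu class subunit genes showed the same order of the groups. Gstm2 (chr3:107981702-107986453) stood at 28.9, 28.9 and 47.4 CPM on normal diet and at 12.5, 12.2 and 12.5 CPM on high fat diet (log2 fold change -1.50, SE 0.27, adjusted p = 0.0137). Gstm4 (chr3:108040408-108044894) stood at 69.2, 86.3 and 102 CPM against 30.2, 35.0 and 33.6 CPM (-1.38, SE 0.27, adjusted p = 0.0206). Gstm6 (chr3:107938847-107943749) stood at 99.5, 104 and 141 CPM against 52.4, 52.3 and 39.9 CPM (-1.26, SE 0.22, adjusted p = 0.0121). In each gene the lowest normal diet library lay above the highest high fat library. Of these, Gstm4 is the gene with no window shared with another gene. Without 1 library, Gstm2 lost its call in 3 of 9 fits (each without a high fat vehicle library), Gstm4 in 4 (those and the fit without normal diet replicate 2) and Gstm6 in 2 (without high fat vehicle replicate 1 or 3), with adjusted p of up to 0.0698, 0.0970 and 0.0775.

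Gsta4, an alpha class enzyme with a preference for 4-hydroxynonenal and similar lipid aldehydes (chr9:78182774-78209349, plus strand), stood at 38.2, 29.4 and 50.3 CPM on normal diet and at 18.0, 15.2 and 17.4 CPM in high fat vehicle livers. Again no library of one group reached the other. The fall was 2.33-fold (log2 fold change -1.22, SE 0.27, adjusted p = 0.0274). The call was lost without normal diet replicate 3 and without each high fat vehicle library (adjusted p of up to 0.127), without scaling (0.0514) and with offsets for transcript length and GC content (log2 fold change -0.84, adjusted p = 0.0619).

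Gsta3, the main alpha class gene of these livers, encodes an enzyme known for detoxifying aflatoxin epoxide (chr1:21240589-21265661, plus strand). It stood at 526, 575 and 784 CPM on normal diet and at 518, 599 and 432 CPM on high fat diet, so the groups overlapped (log2 fold change -0.28, edgeR adjusted p = 0.515). Gstt3, a theta class gene (chr10:75774115-75781414, minus strand), overlapped as well, at 84.7, 91.1 and 125 CPM against 97.5, 99.4 and 68.4 CPM (log2 fold change -0.18, adjusted p = 0.716). A p that misses the threshold does not show that these genes were unchanged.

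Leaving out replicate 1, 2 or 3 of the high fat vehicle group left 1, 2 and 1 of the glutathione transferases called lower. The loss was not limited to them, since the genes called lower over the whole table went from 180 to 20, 34 and 17 in the same fits. The rRNA share of these libraries was the lowest and their length correlation the highest of the 3 groups, as given above. With length and GC offsets 5 of the 6 genes were called, and the part of library composition in the size of these falls was otherwise not tested.

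**Figure D3:**
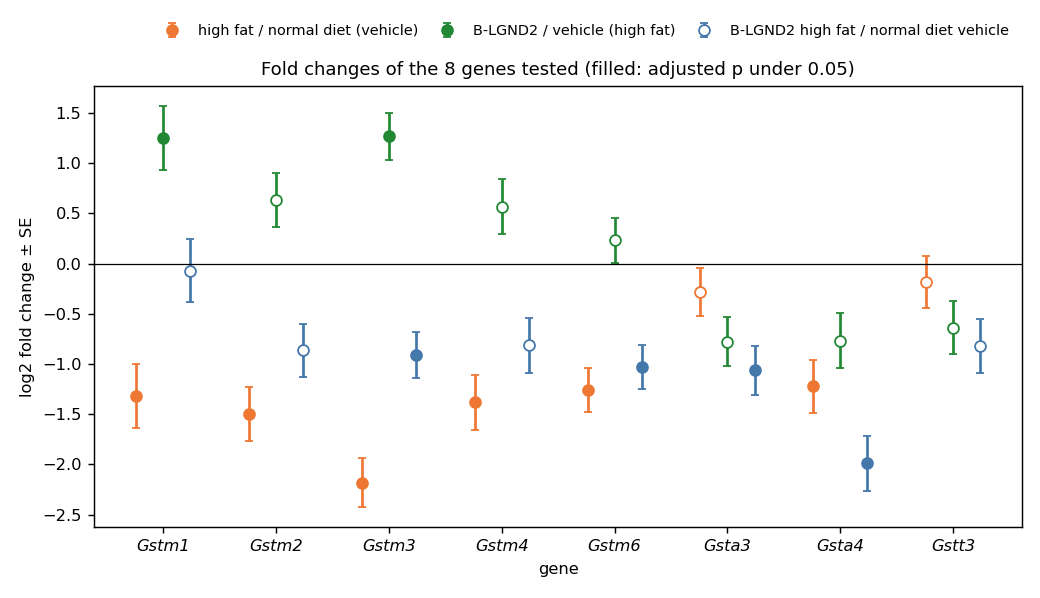
Log2 fold change ± SE of the 8 genes tested for the 3 comparisons, with filled points for adjusted p under 0.05. The diet points lie below 0 in all 8 genes and the B-LGND2 against vehicle points lie above 0 in the 5 mu class genes and below 0 in Gsta3, Gsta4 and Gstt3.

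B-LGND2 against vehicle, both on the high fat diet, asks what the ligand did to these transcripts. It shares the high fat vehicle libraries with the diet comparison, so the directions of the 2 comparisons are not independent. Gstm3 and Gstm1 rose, by 2.40-fold and 2.38-fold. Of the 8 tested genes, these 2 were called higher and none lower, against 3.07% and 2.56% of all tested genes. At an unadjusted p under 0.05, 3 were higher and 3 lower, beside 1553 and 1321 of all 12102 tested genes. DESeq2 called 2 higher and 1 lower, beside 621 and 502 of the 12102. The median log2 fold change of the 8 was 0.40, beside -0.00 over all genes. Libraries did not overlap in 3 genes in the higher direction and in 2 in the lower, beside 16.4% and 17.2% of all tested genes.

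Gstm3 stood at 64.5, 36.2 and 54.1 CPM in B-LGND2 replicates 1 to 3, against 22.9, 22.3 and 19.2 CPM with vehicle. The lowest treated library lies above the highest vehicle library, and all 3 lie below the normal diet range. The log2 fold change was 1.27 (SE 0.24, edgeR adjusted p = 0.00863). Without high fat vehicle replicate 2 or 3 the adjusted p reached up to 0.0506, just past the threshold.

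Gstm1 stood at 2506, 855 and 1135 CPM with B-LGND2, against 709, 593 and 588 CPM with vehicle. All 3 treated libraries lie above the vehicle libraries, but replicate 1 is more than the others combined. The log2 fold change was 1.25 (SE 0.32, adjusted p = 0.0336). Without B-LGND2 replicate 1 it was 0.69 (adjusted p = 0.150), and the call was also lost without high fat vehicle replicate 1, 2 or 3 (log2 fold change 1.34, 1.21 and 1.20). Replicate 1 was the deepest library and the one with the highest GC correlation, and the part of that in its Gstm1 level was not tested.

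The remaining mu class genes did not pass. Gstm2 stood at 22.6, 21.3 and 13.8 CPM with B-LGND2, all above the vehicle libraries at 12.2 to 12.5 (log2 fold change 0.64, adjusted p = 0.164). Gstm4 stood at 70.6, 44.9 and 30.6 CPM and overlapped the vehicle libraries (0.57, adjusted p = 0.219). Gstm6 stood at 62.3, 50.2 and 57.1 CPM, also overlapping (0.23, adjusted p = 0.548).

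Both tested alpha class genes were lower with B-LGND2 in every library, without passing the test. Gsta3 stood at 227, 289 and 387 CPM, below the lowest vehicle library at 432 CPM (log2 fold change -0.78, SE 0.24, adjusted p = 0.0690), and 6 of 22 alternatives called it, DESeq2 among them (adjusted p = 0.0361). Gsta4 stood at 8.46, 8.09 and 13.3 CPM, below the lowest vehicle library at 15.2 CPM (-0.77, SE 0.27, adjusted p = 0.103), and 2 of 22 alternatives called it, both with length and GC offsets. Gstt3 stood at 57.1, 75.8 and 37.3 CPM, overlapping the vehicle libraries (-0.64, adjusted p = 0.155).

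Left out 1 at a time, high fat vehicle replicate 1, 2 or 3 and B-LGND2 replicate 1 took the number of glutathione transferases called higher from 2 to 1, 0, 0 and 1, while the genes called higher over the whole table went from 371 to 68, 51, 91 and 94. The macrophage marker levels given above were higher in every B-LGND2 library, with 10 of 14 markers called higher (5 and 6 without high fat vehicle replicate 1 and 2) and a median log2 fold change of 1.50. Cd5l, a marker of resident liver macrophages, stood at 406 ± 72.2 against 90.1 ± 16.8 CPM. The part of a changed cell makeup in the glutathione transferase values was not tested.

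**Figure D4:**
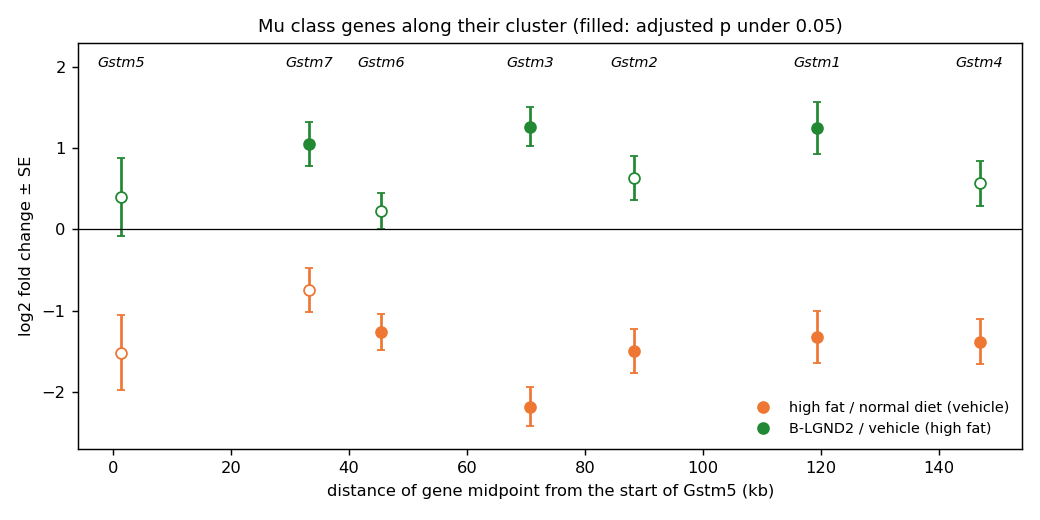
Log2 fold change ± SE of the 7 mu class genes against the distance of the gene's midpoint from the start of Gstm5, in kilobases, for diet and for B-LGND2 against vehicle, with filled points for adjusted p under 0.05. Diet points lie below 0 and B-LGND2 points above 0 along the whole cluster, and Gstm3 holds the lowest diet value, -2.18.

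Treated livers on high fat diet were also set against vehicle livers on normal diet, which differ in both diet and treatment. Gstm3, Gstm6, Gsta3 and Gsta4 were lower, while Gstm1 stood at 1499 ± 884 against 1576 ± 267 CPM and did not pass. Of the 8 genes, 4 were called lower and none higher, beside 1.33% of all tested genes called lower. In 6 genes all treated libraries lay below all normal diet libraries, beside 10% of all tested genes. The median log2 fold change was -0.89.

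Among the 8 tested genes Gsta4 fell most, 3.95-fold from 39.3 ± 10.5 to 9.96 ± 2.92 CPM (log2 fold change -1.99, SE 0.27, edgeR adjusted p = 0.00113), and was called in all 22 alternatives. Gsta3 fell 2.09-fold, from 628 ± 137 to 301 ± 80.7 CPM (-1.06, SE 0.24, adjusted p = 0.0290). Gstm6 fell 2.04-fold, from 115 ± 23.0 to 56.5 ± 6.10 CPM (-1.03, SE 0.22, adjusted p = 0.0210). Gstm3 fell 1.89-fold, from 97.4 ± 6.49 to 51.6 ± 14.3 CPM (-0.91, SE 0.23, adjusted p = 0.0420). Gsta3 lost its call without normal diet replicate 2 or 3 or B-LGND2 replicate 1 or 2 (adjusted p of up to 0.116) and with length and GC offsets (-0.64, adjusted p = 0.0781). Gstm6 lost it without normal diet replicate 2 or B-LGND2 replicate 2 or 3 (up to 0.0667), and Gstm3 kept it only without normal diet replicate 1 or B-LGND2 replicate 1 (up to 0.144). Of these 4 genes only Gsta4 kept its call without normal diet replicate 2 or B-LGND2 replicate 2, and only Gsta4 and Gstm6 without normal diet replicate 3. Over all 10 members, with the low-count filter run anew, 2 were called in each of these fits.

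Gstm1 had a log2 fold change of -0.07 in this comparison (adjusted p = 0.925), with treated libraries on both sides of the normal diet range. Gstm2 at -0.86 (adjusted p = 0.0876), Gstm4 at -0.81 (0.113) and Gstt3 at -0.82 (0.105) did not pass.

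Gsta2, an inducible alpha class gene (chr9:78331018-78355788, minus strand), had too few counts for the filter. Normal diet libraries held 26, 8 and 45 counts of it, high fat vehicle libraries 5, 3 and 5, and B-LGND2 libraries 0, 2 and 0. The counts were lower from group to group in that order, with no overlap between neighbouring groups. With no filter the log2 fold change was -2.53 for diet (edgeR adjusted p = 0.00403) and -2.59 for B-LGND2 against vehicle (adjusted p = 0.103). Of treated against normal diet livers it was -5.12 (adjusted p = 5.22e-07), a fitted value that rests on 2 counts in the treated group. With no filter more genes of the whole table were called too. Of 21517 genes, 686 were lower with diet and 348 lower in treated against normal diet livers. With the filter these were 180 and 161 of 12102. The coding sequence of Gsta2 was 98.0% identical to that of Gsta1, which had 1 count over all libraries.

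Gstp1, the pi class gene (chr19:4035407-4037985, minus strand), had 0 counts in each of the 9 libraries, as had its neighbours Gstp2 and Gstp3. A count of 0 allows up to 3 counts per library. The processed pseudogene Gstp-ps (chr1:192073820-192074450), chosen after its values were seen, carried 32863, 28434 and 41735 counts in normal diet livers, 16987, 10636 and 17524 in high fat vehicle livers, and 43755, 22566 and 15425 with B-LGND2. Its 631 bases aligned with the coding sequence of Gstp1 at 97.6% identity, with 15 differences. Gstp2 was closer to it, at 99.2% identity and with a shared run of 339 bases, and 71.1% of its 50-base windows also occur in Gstp1 or Gstp2. The final 300 coding bases of Gstp1 occur in it without a mismatch. The 60 bases before them hold 6 of the differences, which capitals mark:
Gstp1, coding bases 271 to 330: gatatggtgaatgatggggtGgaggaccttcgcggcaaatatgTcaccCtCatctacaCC
Gstp-ps, bases 269 to 328: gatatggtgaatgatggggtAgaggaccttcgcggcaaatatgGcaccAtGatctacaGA

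Which of these genes the pi class reads came from cannot be told apart from the count table, so a 0 under Gstp1 is not a measured absence of its transcript. Under the pseudogene's name the level was 5200 ± 539 CPM on normal diet, 2281 ± 617 in high fat vehicle livers and 3653 ± 1283 with B-LGND2. The high fat vehicle libraries lay below every normal diet library (log2 fold change -1.19, SE 0.28, edgeR adjusted p = 0.0342), and that call was lost in 5 of 9 fits without 1 library (without normal diet replicate 2 or 3 or any high fat vehicle library, adjusted p of up to 0.168) and with length and GC offsets (-0.86, adjusted p = 0.0587). B-LGND2 against vehicle was at 0.68 (adjusted p = 0.145).

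Counts were also summed by class, with every annotated protein-coding gene of the class in place of single genes, so that the split of reads among these genes does not enter. Annotated pseudogenes and gene models that share windows with them are not in the sums, and reads counted there are not recovered. Examples are Gstm2-ps1 and Gm8834 for Gstm1 and Gstm3, and Gm10639 and Gm3776 for Gsta2. The 7 mu class genes summed to 1989 ± 314 CPM on normal diet, 791 ± 77.3 in high fat vehicle livers and 1767 ± 955 with B-LGND2. The sum fell with diet (log2 fold change -1.33, SE 0.30, edgeR adjusted p = 0.0319) and rose with B-LGND2 against vehicle (1.16, SE 0.30, adjusted p = 0.0367). Gstm1 made up 79.1% ± 2.44, 79.6% ± 1.78 and 83.4% ± 4.23 of these counts, so the mu sum is mostly its own. The call with B-LGND2 was lost without normal diet replicate 2, any high fat vehicle library or B-LGND2 replicate 1 (0.66, adjusted p = 0.153). The diet call was lost without normal diet replicate 2 or 3 or any high fat vehicle library (adjusted p of up to 0.129).

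The 4 alpha class genes summed to 672 ± 148, 534 ± 82.0 and 311 ± 83.3 CPM in the same order. They did not pass with diet (log2 fold change -0.33, adjusted p = 0.439) or with B-LGND2 against vehicle (-0.78, SE 0.24, adjusted p = 0.0683), a value that 9 of 22 alternatives called. Treated against normal diet livers, the alpha sum fell (-1.11, SE 0.24, adjusted p = 0.0243), though not in the fits without normal diet replicate 2 or 3 or B-LGND2 replicate 1 or 2 (adjusted p of up to 0.105). The 4 theta class genes summed to 652 ± 164, 439 ± 28.1 and 503 ± 145 CPM and passed in none of the 3 comparisons.

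A ratio of 2 genes within a library does not depend on how that library is scaled. The log2 ratio of mu to alpha class counts was 1.73, 1.52 and 1.48 on normal diet, 0.71, 0.31 and 0.70 in high fat vehicle livers, and 3.60, 1.86 and 1.77 with B-LGND2. No 2 groups overlapped. High fat vehicle libraries had the lowest ratios and B-LGND2 libraries the highest. B-LGND2 against vehicle differed by 1.83 on the log2 scale. Both this and the diet difference had a two-sided exact permutation p = 0.1, the smallest that 3 against 3 libraries allow.

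The ratio of Gstm3 to Gsta4 had the same order of groups, with log2 values of 1.34 ± 0.46, 0.35 ± 0.20 and 2.37 ± 0.49, and the ratio of Gstm1 to Gsta3 stood at 1.33 ± 0.19, 0.29 ± 0.27 and 2.19 ± 1.10. Within the mu class, the log2 ratio of Gstm1 to Gstm6 was 3.78 ± 0.15 on normal diet and 3.71 ± 0.19 in high fat vehicle livers (exact permutation p = 0.7), against 4.58 ± 0.66 with B-LGND2, where all 3 libraries lay above both other groups (exact permutation p = 0.1). The 4 ratios share genes and libraries, and with Benjamini-Hochberg adjustment none could pass 0.05 in a design of this size.

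**Figure D5:**
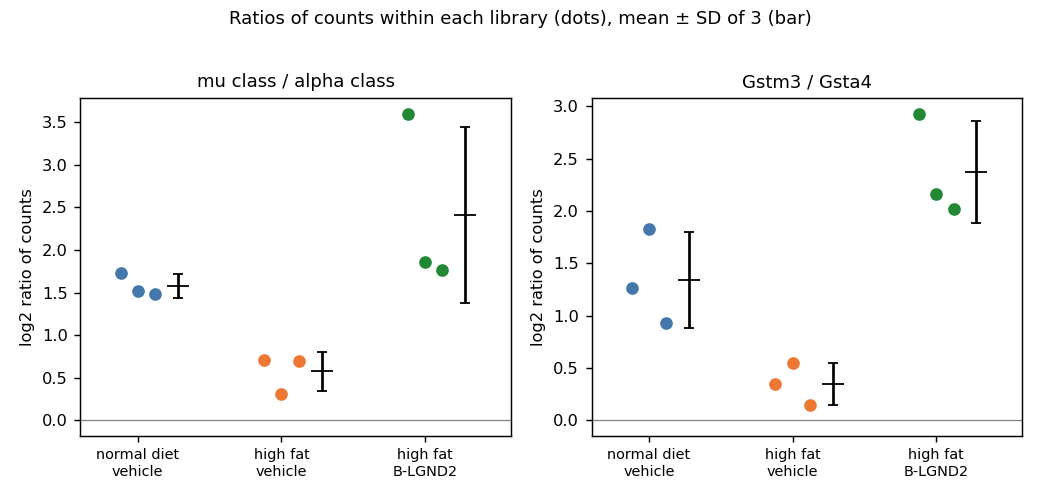
Log2 ratios of counts within each library, by group, with dots for libraries and bars for the mean ± SD of 3. In the ratio of mu to alpha class counts the high fat vehicle libraries lie at 0.31 to 0.71, below the other 6 libraries at 1.48 to 3.60.

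Among 7443 other protein-coding genes whose mean log2 CPM reached 3, the profiles most like Gstm3 over the 9 libraries were those of Csad, a taurine synthesis enzyme, Lpl, the lipoprotein lipase, Htatip2, Tuba1b and Itpa. Their root mean square differences of centred log2(CPM + 1) were 0.28, 0.29, 0.41, 0.41 and 0.42, beside a range of 2.38 for Gstm3 itself. Gstm1 was rank 8, Gstm2 13, Gstm4 14 and Gstm6 16 in that order, whereas Gsta4 was rank 2147. The profiles most like Gsta4 were those of the glucuronosyltransferase Ugt2b5, Med21, the transporter Slc22a30, the cortisone reductase Hsd11b1 and Ugt2b35, at 0.29 to 0.34. There Gsta3 was rank 56 and the mu class Gstm6 rank 107, at 0.45 and 0.50, while Gstm3 was rank 3174. The genes share libraries and their composition, so these ranks are a description.

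In this and all later lists, calls are read beside the shares of all tested genes. With diet 1.49% of all were called lower and 1.5% higher, and with B-LGND2 against vehicle 2.56% and 3.07%. Treated against normal diet livers, 1.33% were called lower, and 193 of 12102 genes higher. The other glutathione transferases of the table numbered 16, of which 9 were tested. With diet 2 were called lower, the membrane-bound Mgst1, from 4088 ± 1239 to 1981 ± 166 CPM (log2 fold change -1.05, SE 0.24, edgeR adjusted p = 0.0331), and the theta class Gstt2 (-0.95, SE 0.25, adjusted p = 0.0486). The median of the 9 was -0.75. With B-LGND2 against vehicle the mu class Gstm7 was called higher, from 43.1 ± 7.35 to 88.9 ± 35.0 CPM (1.05, SE 0.27, adjusted p = 0.0359), a gene without shared windows. Its call was lost without normal diet replicate 2, any high fat vehicle library or B-LGND2 replicate 1 (0.70, adjusted p = 0.155). Mgst1 lost its call without normal diet replicate 2 or 3 or any high fat vehicle library (adjusted p of up to 0.144), and Gstt2 without those or B-LGND2 replicate 2 or 3 (up to 0.208). With length and GC offsets Mgst1 was at -0.59 (adjusted p = 0.0844). Gstt2 was not called with limma-voom (adjusted p = 0.0603), without scaling (0.0772) or without the robust option (0.0525), and neither gene was called when only the 2 groups compared were fitted (0.0606 for Mgst1 and 0.0680 for Gstt2). Without normal diet replicate 1, 5 were called with diet. Treated against normal diet livers, edgeR and limma-voom called 0 of the 9. At an unadjusted p under 0.05 in edgeR, 5 were lower and 0 higher, beside 1121 and 1231 of all 12102 tested genes. DESeq2 called 2 lower, beside 300 of the 12102. Without normal diet replicate 1 edgeR called 2.

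Genes that supply glutathione moved in both directions. Of 14 tested, 1 was called higher with diet, Oplah, the 5-oxoprolinase of the glutathione cycle, from 88.1 ± 20.4 to 176 ± 22.6 CPM (log2 fold change 1.00, adjusted p = 0.0289). With B-LGND2 against vehicle the cysteine-forming enzyme Cth (-1.08, adjusted p = 0.0203) and the glutathione-degrading Chac1 (-1.43, adjusted p = 0.0246) were called lower and Ggt6, of the gamma-glutamyltransferase family, higher (0.84, adjusted p = 0.0464). Treated against normal diet livers, 3 were called lower: Cth (-1.53), Chac2 (-1.44) and Gclc, the catalytic subunit of the rate-limiting step of glutathione synthesis (-0.94, adjusted p = 0.0271). The medians of the list were -0.21, 0.07 and -0.16 in the 3 comparisons. Its calls with B-LGND2 against vehicle numbered 0 without replicate 1 or 2 of the high fat vehicle group or B-LGND2 replicate 1, 1 without high fat vehicle replicate 3, and 6 without normal diet replicate 1 or 3. Oplah was not called without normal diet replicate 2 or 3 or any high fat vehicle library, and 1 gene was called in the third comparison without normal diet replicate 2 or B-LGND2 replicate 1 or 2.

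Of 10 tested peroxidase and redoxin genes, Prdx1, a peroxiredoxin, was called lower with diet (log2 fold change -1.09, adjusted p = 0.0164). Gpx4, which reduces lipid hydroperoxides, was called lower with B-LGND2 against vehicle (-1.96, adjusted p = 0.00829), at 2.36 ± 0.977 against 9.03 ± 0.531 CPM. These levels rest on 11, 18 and 19 counts with B-LGND2 and 58, 60 and 61 with vehicle. Whether reads of Gpx4 were counted under other genes was not checked. Of 9 tested genes for the export and processing of conjugates, 3 were called lower with B-LGND2 against vehicle: the efflux pumps Abcg2 (-1.29, adjusted p = 0.00797) and Abcc3 (-1.06, adjusted p = 0.0316) and the aminoacylase Acy1 (-1.02, adjusted p = 0.0401). With diet edgeR and limma-voom called 0 of the 9. DESeq2 called 1 higher and 1 lower, beside 380 and 546 of all 12102 tested genes. At an unadjusted p under 0.05 in edgeR, 2 were higher and 2 lower, beside 1288 and 1424 of the 12102. The median of the 9 was 0.27. The calls in conjugate export dropped from 3 to 1 without any 1 high fat vehicle library or B-LGND2 replicate 1 or 3 and numbered 5 without normal diet replicate 3. Prdx1 was not called without a high fat vehicle library, and 4 peroxidase and redoxin genes were called with diet without normal diet replicate 1.

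Other known NRF2 targets were listed beside the glutathione transferases. The lists overlap: Ces2a is in this list and in that of CAR and PXR targets below. Gclc is in this list and in that of glutathione supply. Abcc3 is among the CAR and PXR targets and the export genes, and such genes count in each of their lists. Of 15 NRF2 targets tested, 12 had a log2 fold change below 0 with diet and 7 with B-LGND2 against vehicle. Over all 12102 tested genes these numbers were 6007 and 6091. Of the 15, 2 were called lower with diet, the carboxylesterase Ces2a (log2 fold change -1.16) and the malic enzyme Me1 (-1.87), and with B-LGND2 against vehicle 1 was called higher, the carbonyl reductase Cbr1 (0.97), and 1 lower, the aldehyde oxidase Aox1 (-1.63). Cbr1 was at -0.61 with diet. The medians of the list were -0.31 and 0.00, and its difference from the glutathione transferases was not tested. Treated against normal diet livers, 5 were called lower, among them Ces2a (-1.97), Aox1 (-1.98) and the UDP-glucose dehydrogenase Ugdh (-1.11), with a median of -0.44. Leaving out 1 library gave 0 to 3 calls with diet (0 without normal diet replicate 3 or any high fat vehicle library) and 1 to 4 with B-LGND2 against vehicle (4 without normal diet replicate 1 or 3). In the third comparison it gave 2 to 5, with 2 without normal diet replicate 2 or B-LGND2 replicate 3.

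Known targets of CAR and PXR other than glutathione transferases were called lower in 3 and higher in 1 of 14 with diet, beside 1.49% and 1.5% of all tested genes. With B-LGND2 against vehicle 5 were called lower, beside 2.56%, and the median of the 14 was -0.91. Cyp3a11, the main PXR-responsive cytochrome P450, fell in both (log2 fold change -4.18 and -1.25). Cyp2b9, a CAR target, rose with diet (3.41) and fell with B-LGND2 (-5.34), from 15.9 ± 8.87 to 0.361 ± 0.368 CPM. All 14 targets had a log2 fold change below 0 with B-LGND2, beside 6091 of all 12102 tested genes. Gsta3, Gsta4 and Gstt3 were below 0 as well, and the 5 mu class genes were above 0. The part of CAR and PXR in these values was not tested. The calls of this list with B-LGND2 numbered 9 without normal diet replicate 1 or 3, and without a high fat vehicle library or treated replicate 1 or 3 they numbered 0 to 2. Diet calls numbered 7 without normal diet replicate 1 and 2 without any 1 high fat vehicle library.

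Among the regulators, Nfe2l2, encoding NRF2, stood at 53.5 ± 14.3, 66.9 ± 8.99 and 72.1 ± 14.8 CPM in the 3 groups, and its inhibitor Keap1 at 64.7 ± 11.9, 67.9 ± 8.99 and 81.3 ± 7.44 CPM. Neither passed in any comparison. Nr1i2, encoding PXR, stood at 102 ± 17.4, 118 ± 3.28 and 74.5 ± 7.48 CPM, and Nr1i3, encoding CAR, at 124 ± 52.4, 240 ± 76.0 and 120 ± 25.6 CPM, also without a call (B-LGND2 against vehicle, adjusted p = 0.0658 and 0.0605). Of the 15 regulators tested, 4 were called higher with diet, among them the lipid-sensing receptor Ppara (log2 fold change 1.28) and the aryl hydrocarbon receptor Ahr (1.19). With B-LGND2 against vehicle 3 were called lower: Bach1, a repressor at antioxidant response elements (-1.91, adjusted p = 0.00180), the small Maf factor Maff (-1.45, adjusted p = 0.0233) and Ahr (-1.31, adjusted p = 0.0193). Bach1 fell from 65.6 ± 9.94 to 17.5 ± 5.64 CPM. No regulator was called with diet without normal diet replicate 2 or 3 or any high fat vehicle library, and 7 were called without normal diet replicate 1. With B-LGND2, 1 was called without replicate 1 or 2 of the high fat vehicle group or B-LGND2 replicate 1, and 7 without normal diet replicate 3.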

How the data were processed

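Per the labels' protocols, poly(A)-selected liver RNA was made into barcoded, amplified libraries and read on an Ion Torrent Proton. The authors deposited raw counts, not normalized, with 1 column per library. The submitters' processing notes name HTSeq 0.6.1p1, TopHat2 2.0.13, DESeq2 1.6.3, SAMtools 0.1.19 and Bowtie2 2.2.4, and GRCm38.p3 as the build. Strandedness, annotation release and the handling of reads that fit several genes remain not given in the sources used here. Libraries were amplified without molecular identifiers, so floors cover counting error only.

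Gene IDs were matched to GENCODE M21 on GRCm38, which gave 44671 of 45513 a symbol. In R 4.3.3, filterByExpr of edgeR 4.0.16 (minimum count 10) left 12102 genes and at least 99.7% of each library's counts. One robust quasi-likelihood model of group covered all 9 libraries (6 residual degrees of freedom) on TMM-scaled sizes, and 3 two-sided contrasts were adjusted by Benjamini-Hochberg over all genes tested, with a threshold of 0.05. Class sums replaced the genes of each class in the same fit. No pair of libraries was alike within sampling noise (smallest chi-square per degree of freedom 8.74).

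The members and lists were chosen with earlier results of these data known. Named genes were the 10 members, up to 3 called genes per list, direction and comparison, Nfe2l2, Keap1, Nr1i2, Nr1i3 and the 5 profiles most like Gstm3 and Gsta4. One gene that this rule names is not reported here. Identity was computed with Biopython 1.88 on coding sequences of 1 representative transcript per gene. On simulated counts the test recovered 33% of genes changed by 1 and 86% of those changed by 2 on the log2 scale for diet (11920 genes, 5 false calls), and 26% and 88% for B-LGND2 against vehicle (11930 genes, 18 false calls). Alternatives were other scalings, filters and tools (limma-voom of limma 3.58.1, DESeq2 1.42.0), length and GC offsets, only the 2 groups compared, a replicate block and each library left out in turn.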

Additional observations from a re-analysis of the deposited data

How the results depend on the processing

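Without scaling beyond total counts the median of all genes moved to 0.17 for diet and -0.18 for B-LGND2 against vehicle, so values under that setting are read against this shift. The genes called lower with diet numbered 5 to 7 of the members in every alternative that kept all libraries, and 1 to 6 with 1 library left out. With B-LGND2 against vehicle the members called numbered 0 to 3 with 1 library left out, and against normal diet 2 to 5, with 8 under no low-count filter and 1 when only the 2 groups compared were fitted. Against normal diet, the fit with no filter called 403 higher and 348 lower of all 21517 genes. The fit of only the 2 groups called 79 and 65 of 11682, and the main fit 193 and 161 of 12102. Class sums called with 1 library left out numbered 0 to 1 for diet, 0 to 2 for B-LGND2 against vehicle and 0 to 1 against normal diet. For B-LGND2 against vehicle, 2 class sums were called without scaling, without a filter, with DESeq2, with length and GC offsets, with these and the replicate block, and with only the 2 groups compared. Against normal diet 0 were called with only the 2 groups compared.

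Same-numbered libraries of different groups did not deviate together (correlation -0.208 to 0.136 over 9 pairs, beside -0.144 to 0.199 over 18 differently numbered pairs), so the numbers were not taken to pair the samples. With the replicate number as a block, the members called numbered 6, 2 and 3 in the 3 comparisons and the class sums called for B-LGND2 against vehicle 0. Leaving out both normal diet replicate 1 and B-LGND2 replicate 1, an alternative chosen after seeing the data, gave 1 member called and 0 class sums with B-LGND2 against vehicle, and 2 class sums with diet.

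Signs turned in values that no fit called, some of them near 0 and others over a wider range. Gstt3 for diet was 0.0072 without normal diet replicate 3, in a range of -0.29 to 0.0072 over the libraries left out. Gstt2 for B-LGND2 against vehicle was -0.15 without scaling, -0.00088 with length and GC offsets, -0.0059 with these and the replicate block, -0.17 without both libraries named above and -0.16 to 0.19 with 1 library left out. The theta sum for the same comparison was -0.0033 without scaling, -0.051 without both libraries and -0.036 to 0.34 with 1 left out. Against normal diet, Gstm1 ran from -0.66 to 0.20, Gstm7 from -0.070 to 0.47 and the mu sum from -0.70 to 0.082 with 1 library left out, and Gstm7 was -0.23 without both libraries. The causes were not tested.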

Other observations

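Genes of other liver programs were set beside the glutathione transferases, from lists chosen with earlier results known. Of 11 pericentral hepatocyte genes, the zone where several glutathione transferases are known to be expressed, 1 was called lower with diet, the phosphatase Lhpp (log2 fold change -1.22, edgeR adjusted p = 0.0207), and 1 with B-LGND2 against vehicle, the ornithine aminotransferase Oat (-1.16, adjusted p = 0.0145). The medians were 0.13 and -0.13. Of 10 periportal genes, Pck1, the gluconeogenic carboxykinase, was called higher with diet (1.16, adjusted p = 0.0304) and Sdsl lower (-1.29, adjusted p = 0.0460), and Hsd17b13, a lipid droplet enzyme, was called lower with B-LGND2 against vehicle (-0.95, adjusted p = 0.0246). Of 11 genes with a known male bias in mouse liver, the fatty acid hydroxylases Cyp4a12a (-2.53, adjusted p = 5.02e-04) and Cyp4a12b (-1.54, adjusted p = 0.0328) were called lower with diet, and Ugt2b38 (1.85, adjusted p = 0.0424) and Serpina1e (1.00, adjusted p = 0.0446) higher with B-LGND2 against vehicle. With 1 library left out, the diet calls numbered 0 to 1 in the pericentral list (0 without normal diet replicate 3 or any high fat vehicle library), 0 to 2 in the periportal list (0 without those or normal diet replicate 2, and 1 without B-LGND2 replicate 1) and 1 to 4 in the male-biased list (1 without any 1 high fat vehicle library, 4 without normal diet replicate 1). The calls with B-LGND2 against vehicle numbered 0 to 3, 0 to 2 and 0 to 3, and each list had 0 without high fat vehicle replicate 1 or without B-LGND2 replicate 1. High fat vehicle replicate 2 left out also gave 0 in the periportal and male-biased lists, and replicate 3 of that group or of B-LGND2 gave 0 in the periportal list. The male-biased list had 1 without normal diet replicate 2 or B-LGND2 replicate 2 or 3. More were called in the pericentral list without normal diet replicate 1 or 3 (2 each) or B-LGND2 replicate 2 (3), and in the periportal list without normal diet replicate 3 or B-LGND2 replicate 2 (2 each).

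Markers of other cell types were summed in the same way. The 8 cholangiocyte markers summed to 35.7 to 45.7 CPM on normal diet, 30.1 to 36.2 on high fat diet with vehicle and 52.5 to 65.3 with B-LGND2, where Spp1 was called higher (0.95, adjusted p = 0.0227), though not without any 1 high fat vehicle library or B-LGND2 replicate 3. The 11 endothelial markers summed to 295 to 361, 259 to 322 and 365 to 547 CPM, with Kdr called higher with B-LGND2 against vehicle (0.91, adjusted p = 0.0417) and Lyve1, Cdh5 and Stab2 higher against normal diet (1.37, 1.02 and 0.88). The endothelial calls with B-LGND2 against vehicle changed in 17 of 22 alternatives: they numbered 0 without normal diet replicate 2, any 1 high fat vehicle library or B-LGND2 replicate 1 or 3, and 2 to 4 without each of the other libraries. Against normal diet they numbered 0 to 3 with 1 library left out. The 9 stellate markers summed to 125 to 166, 139 to 152 and 140 to 216 CPM, and the 6 erythroid markers to 143 to 551, 114 to 237 and 204 to 273 CPM. The 9 adipose and pancreas markers summed to at most 63.5 CPM, and the 2 of them tested had a median log2 fold change of -1.32 with B-LGND2 against vehicle without a call. The lymphocyte markers summed to at most 9.83 and the neutrophil markers to at most 10.2 CPM, with Ly6g, Mpo and Ltf at 0 in every library.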
